A study of Mus musculus with 16 samples.

Results

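The growth factors CSF1 and GM-CSF, the receptors for both, and 3 genes that mark monocytes and macrophages were followed in a tumour fraction and in blood. The 8 genes are Csf1, Csf2, Csf1r, Csf2ra, Csf2rb, Adgre1, Itgam and Lyz2. Every probe named for one of them through the RefSeq identifier in the scanner files was taken, which gave 13 of 41174 probes. All 13 passed the filter on dim probes that left 26494 probes and 12298 genes for testing. Where a gene had several probes, the brightest stood for it.

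Tumours were grown under the skin of mice from Hepa1-6, an established hepatoma line of the mouse, and were taken with blood 10 days after inoculation. One group held 8 samples of a tumour fraction that the labels call TIC and describe as enriched in infiltrating inflammatory cells by density gradient centrifugation. It is called infiltrating cells here. The other group held 8 samples of blood of tumour-bearing mice, and the reference on all 16 arrays was blood RNA of C57Bl/6 mice with no treatment. The labels give C57Bl/6 as the strain and female as the sex in both channels, and the treatment text calls the tumour-bearing mice athymic. They give no age and do not say whether a sample number stands for 1 animal, so the p-values measure the spread between these samples, which may be technical. Each sample was labelled with Cy5 and the reference with Cy3 on a 2-colour Agilent array, and no dyes were swapped. The reference counts as 1 control sample, so tests against it leave out the spread between untreated mice. RNA of the 2 groups was extracted with different kits and each slide held arrays of 1 group, so group, kit and slide cannot be told apart.

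CSF1, made by stromal and other cells, binds the receptor tyrosine kinase CSF1R and sustains monocytes and macrophages. GM-CSF, the product of Csf2, binds an alpha chain encoded by Csf2ra, which pairs with the common beta chain encoded by Csf2rb and signals through JAK2 and STAT5. That beta chain also serves the receptors of IL-3 and IL-5. Adgre1 encodes F4/80, a surface protein of mouse macrophages. Itgam encodes CD11b, an integrin chain of monocytes, macrophages, neutrophils and NK cells. Lyz2 encodes lysozyme M, made by neutrophils, monocytes and macrophages. In bulk RNA, fewer cells of a type and less RNA per cell cannot be told apart.

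The probe sequences of the members were not used here. RefSeq promoters of assembly GRCm38.p6 matched 5 of the 8 members: Csf1, Csf2, Csf2ra, Itgam and Lyz2. The 250 bases before each start were searched for GAGGAA, the core of binding sites of the myeloid factor PU.1, on both strands (TTCCTC on the other), since PU.1 is known to act on many genes of this lineage. Itgam and Csf2ra each held 2 matches and are shown with the matches in capitals. Csf1, Csf2 and Lyz2 held 0. Of all 32851 promoters in the table, 23.3% held at least 1. The Itgam window is chr7:128062390-128062639 on the + strand, with 1 match on each strand, and the Csf2ra window is chr19:61228419-61228668 on the - strand, with both matches on the sense strand side by side.
Itgam: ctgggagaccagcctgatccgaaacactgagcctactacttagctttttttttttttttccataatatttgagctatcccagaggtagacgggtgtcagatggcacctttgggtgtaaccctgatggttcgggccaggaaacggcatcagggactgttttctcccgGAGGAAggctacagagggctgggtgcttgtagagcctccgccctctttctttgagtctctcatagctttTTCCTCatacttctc
Csf2ra: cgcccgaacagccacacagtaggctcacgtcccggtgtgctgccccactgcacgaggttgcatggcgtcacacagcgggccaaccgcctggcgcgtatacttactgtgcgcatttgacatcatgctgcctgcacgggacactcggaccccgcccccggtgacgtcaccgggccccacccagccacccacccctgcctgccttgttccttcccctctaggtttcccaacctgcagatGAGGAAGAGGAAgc
A match is a description of letters in these windows. The probe of Spi1, which encodes PU.1, was well above background on 8 of 8 infiltrating-cell arrays in Cy5, on 0 of 8 arrays of tumour blood, and on 2 of 16 arrays in Cy3. Its log2 ratio in infiltrating cells was 0.00, which sets no level, since the reference was near background on most arrays.

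The share of probes well above background in Cy5 was 51.1% to 65.8% in infiltrating cells and 24.8% to 36.3% in tumour blood, and in the Cy3 reference it was 46.5% to 51.0% on infiltrating-cell arrays and 41.0% to 45.3% on tumour-blood arrays, with no overlap. Over tested probes, log2 ratios of pairs of arrays correlated at 0.80 to 0.98 within infiltrating cells and 0.56 to 0.83 within tumour blood. Between the groups they correlated at −0.31 to −0.08, and the labels give the same dyes on every array. Cy5 signals were summed over markers of a cell type after quantile normalisation. For 11 monocyte and macrophage markers, the members Csf1r and Adgre1 among them, the sums were 10760 to 23499 units in infiltrating cells and 3727 to 4979 in tumour blood. Of these markers 5 were well above background on no tumour-blood array. The fraction also held markers of other cells. NK cell markers summed to 6290 to 26287 units in infiltrating cells, against 3807 to 4813 in tumour blood. Hepatoma and hepatocyte markers summed to 109447 to 271391 units in infiltrating cells, against 799 to 890 in tumour blood, and fibroblast markers to 38442 to 78196 against 1037 to 2140. Neutrophil markers summed to 4900 to 20323 units in infiltrating cells, against 73128 to 168141 in tumour blood, and erythroid markers to 47053 to 82836 against 749151 to 839072. The part of these cells in the values below was not tested. After the background correction, the 5th percentile of signal was 609 units in Cy5 and 468 in Cy3 on infiltrating-cell array 897, and 825 and 252 on array 898. On the other 14 arrays it was 57.3 to 138 in Cy5 and 55.8 to 91.1 in Cy3. Both arrays hold spots whose local background lay more than 50 units above the spot, 1 on array 897 and 12 on array 898. There were 3 to 5 such spots on 3 of the other arrays and 0 on the rest. With such spots left out of the background fit, every array lay between 55.8 and 68.6 units in both channels. Results that rest on these 2 arrays are given with this refit, and without the arrays.

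The level of each gene rests on how an array is centred. Loess draws the trend of the ratio to 0 at every intensity, and median centring moves all ratios of an array by 1 constant. The median log2 ratio of all genes in infiltrating cells was 1.20 under median centring of arrays and 0.05 under loess, and in tumour blood it was −0.16 and −0.02. The shift grew with brightness, from −0.14 in the dimmest of 10 equal bins of genes to 2.15 in the brightest in infiltrating cells, and from 0.06 to −0.63 in tumour blood. The members followed this trend: Lyz2 shifted by 2.29 and Csf2ra by 2.17 in infiltrating cells, and the dim Csf2 by 1.12. Csf2rb shifted by 1.23, against a median of 1.81 in the bin of genes nearest to it in brightness.

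**Figure D1:**
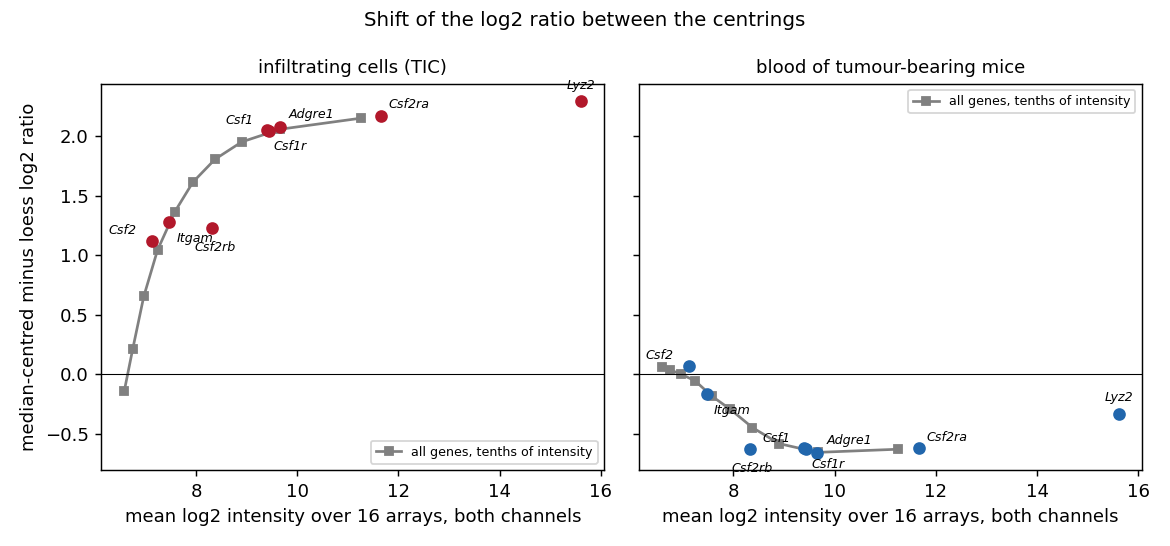
Each point is a member, placed by its mean log2 intensity (x axis) and by its median-centred minus its loess log2 ratio, averaged over 8 arrays (y axis); grey squares are medians of all 12298 genes in 10 bins of intensity. In infiltrating cells (left) the shift reaches 2.29 for Lyz2, and in tumour blood (right) it lies between −0.66 for Adgre1 and 0.07 for Csf2.

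The first comparison set infiltrating cells against untreated blood. Under loess, Adgre1 rose, Csf2rb and Lyz2 fell, and Csf1, Csf1r, Csf2, Csf2ra and Itgam did not pass the test. The test was limma over all tested probes, and a call needed both an adjusted p (Benjamini-Hochberg) under 0.05 and a change of at least 2-fold. So 3 of 8 members were called, while 19.5% of all genes were called in this comparison. Under median centring 6 of 8 rose, where 59% of all genes were called and 55.7% rose. These 6 were Csf1, Csf1r, Csf2, Csf2ra, Adgre1 and Itgam. Of all called genes 94.4% were higher under median centring and 48.0% under loess. A median-centred value is read against genes of like brightness, since the shift ran from −0.14 in the dimmest bin to 2.15 in the brightest. The 1.20 of all genes is too low a mark for bright members such as Csf1r, which shifted by 2.05.

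**Figure D2:**
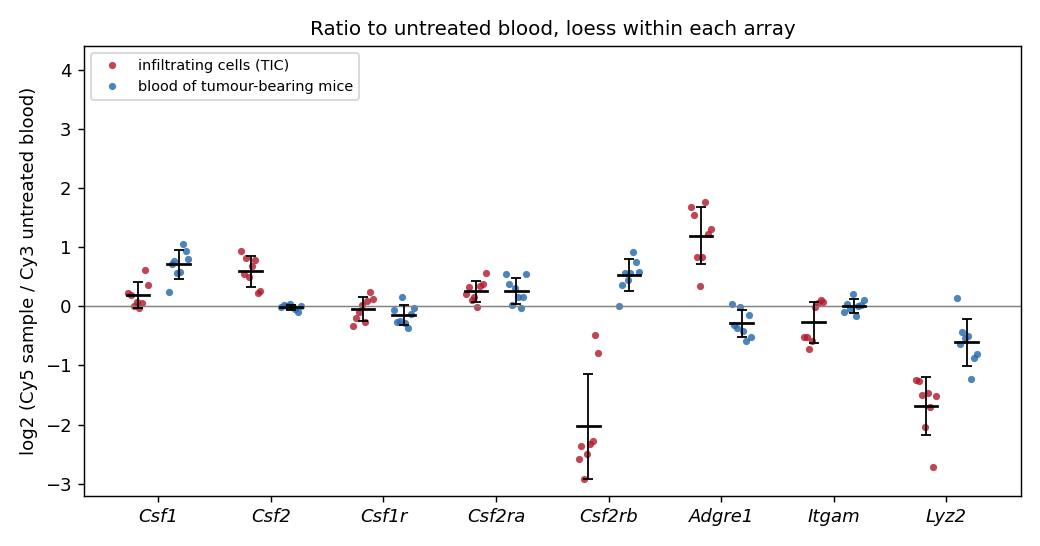
Log2 ratio of sample (Cy5) over untreated blood (Cy3) after loess for each member, with 1 point per array, the mean as a bar and the SD as whiskers, infiltrating cells left of tumour blood. Adgre1 lies above 0 on all 8 infiltrating-cell arrays and Csf2rb and Lyz2 lie below 0 on all 8; the 2 high points of Csf2rb are arrays 897 and 898.

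Csf1, the ligand of CSF1R, had log2 ratios of −0.03, 0.13 and 0.62 (lowest, median and highest of 8 arrays) in infiltrating cells, and of 0.25, 0.74 and 1.06 in tumour blood. All 8 tumour-blood arrays lay above 0, and the groups overlapped. The mean was 0.19 ± 0.07 in infiltrating cells (limma SE, n = 8; limma adjusted p = 0.042) and 0.71 ± 0.07 in tumour blood (limma adjusted p = 8.7e-07), both under 2-fold. The highest values in infiltrating cells were those of arrays 897 (0.62) and 898 (0.37). The mean there was 0.14 ± 0.05 with the refit of the background and 0.09 ± 0.06 without these arrays (limma adjusted p = 0.19). The overlap of the groups under loess rests on them, since the next highest value was 0.22, below the 0.25 of tumour blood. With the refit the groups still overlapped, as the highest value in infiltrating cells was 0.41 and the lowest in tumour blood 0.32. Csf1 was printed in 10 spots on each array, whose SD within an array had a median of 0.12 in infiltrating cells and 0.07 in tumour blood. The spread between arrays was larger, with an SD of 0.22 in infiltrating cells and 0.25 in tumour blood. Under median centring the mean was 2.23 ± 0.14 in infiltrating cells and 0.08 ± 0.16 in tumour blood, so the order of the groups for Csf1 reversed between the centrings.

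Csf2, which encodes GM-CSF, was the dimmest of the genes. Its Cy5 signal was well above background on 8 of 8 infiltrating-cell arrays and on 0 of 8 tumour-blood arrays. After quantile normalisation the signal was 191, 250.2 and 336 units in infiltrating cells and 93.4, 103 and 113 units in tumour blood, with no overlap. Scaled in single channels after loess, its Cy5 signal was 2.17-fold higher in infiltrating cells than in tumour blood. There, the lowest signal of any detected probe on an array replaced lower values in tumour blood. This value leaves out the reference. The difference of ratios, which takes the reference in, was 1.52-fold under loess, so 2.17-fold is no firm minimum. Both sides of the 2.17-fold value are Cy5, so it rests on the scaling between arrays. Group, kit and slide cannot be told apart in it. The reference channel also differed: in Cy3, Csf2 was well above background on 8 of 8 arrays that carried infiltrating cells and on 0 of 8 that carried tumour blood, although the labels give the same kind of RNA. The Cy3 signal was 87.6, 95.3 and 105.4 units on the infiltrating-cell arrays and 77.5, 78.9 and 79.3 units on the tumour-blood arrays. The source of this difference was not tested.

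The ratio of Csf2 was above 0 on all 8 infiltrating-cell arrays, at 0.22, 0.61 and 0.94, and was −0.10, −0.00 and 0.04 in tumour blood. The mean of 0.59 ± 0.08 in infiltrating cells (limma adjusted p = 1.7e-04) did not reach 2-fold. The lowest values were those of arrays 897 and 898, and the mean was 0.77 with the refit of the background and 0.71 without these arrays. It was called under other processing: 1.71 ± 0.17 under median centring, 1.23 ± 0.08 with background subtraction and a floor, and 1.79 ± 0.11 in the deposited ratios. In tumour blood it was −0.01 ± 0.04 under loess, where the signal was not well above background.

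Csf1r, the receptor of CSF1 and of IL-34, lay near 0 under loess. Its log2 ratios were −0.33, −0.04 and 0.25 in infiltrating cells, with 4 of 8 arrays above 0, and −0.37, −0.18 and 0.15 in tumour blood. The means were −0.05 ± 0.07 in infiltrating cells (limma adjusted p = 0.53) and −0.15 ± 0.05 in tumour blood (limma adjusted p = 0.030). Under median centring the values were 1.03, 2.05 and 2.46 in infiltrating cells and −1.15, −0.70 and −0.52 in tumour blood, and the groups did not overlap, as for 65.5% of all genes. There the means were 2.002 ± 0.15 (limma adjusted p = 7.5e-07) in infiltrating cells and −0.77 ± 0.08 (limma adjusted p = 2.2e-05) in tumour blood. Centring on spike-in controls gave 1.66 in infiltrating cells, and the deposited ratios gave −0.17. The call for Csf1r rests on the scaling of the array.

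Csf1r has 2 further probes. The second gave −0.17 ± 0.08 in infiltrating cells under loess and 1.12 ± 0.13 under median centring, in the direction of the brightest probe. The dimmest was well above background in Cy5 on 8 of 8 infiltrating-cell arrays and on 0 of 8 tumour-blood arrays. In Cy3 it was so on 3 of 8 infiltrating-cell arrays and on 0 of 8 tumour-blood arrays, so its ratio is not set against those of the brighter probes. The Cy5 signal of the brightest probe was 957, 1197 and 1394 units in infiltrating cells and 605, 772 and 917 units in tumour blood, with no overlap, as for 54.4% of all genes. The reference signal of this probe was also higher on the infiltrating-cell arrays, by 0.57 ± 0.05 log2.

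Csf2ra, the alpha chain that binds GM-CSF, had overlapping ratios in the groups under loess: −0.00, 0.27 and 0.56 in infiltrating cells and −0.03, 0.23 and 0.54 in tumour blood. Its means were 0.26 ± 0.06 in each (limma adjusted p = 0.0046 in infiltrating cells and 0.0033 in tumour blood), under 2-fold. Median centring gave 2.43 ± 0.15 in infiltrating cells and −0.36 ± 0.13 in tumour blood.

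Csf2rb, the common beta chain, fell in infiltrating cells. Its log2 ratios were −2.91, −2.35 and −0.48 in infiltrating cells and 0.01, 0.56 and 0.91 in tumour blood, and the groups did not overlap. The mean was −2.03 ± 0.27 in infiltrating cells (limma adjusted p = 9.7e-05) and 0.52 ± 0.07 in tumour blood (limma adjusted p = 3.0e-05), under 2-fold in blood. The values nearest 0 were −0.48 on array 897 and −0.79 on array 898. With the refit of the background the 8 arrays ranged from −2.91 to −2.17 with a mean of −2.43 ± 0.07, and without both arrays the mean was −2.49 ± 0.08. The deposited ratios gave −3.40 ± 0.11. Under median centring the mean of −0.80 ± 0.17 was no longer 2-fold. Under spike-in centring it was −1.14 and passed the test. The median of all genes was 1.20 under median centring and 0.86 under spike-in centring.

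The Cy5 signal of Csf2rb was 157, 170 and 188 units in infiltrating cells and 839, 1332 and 1843 units in tumour blood. Its reference signal moved the same way by less, at 206, 252 and 313 units on the infiltrating-cell arrays and 350, 389 and 459 units on the tumour-blood arrays. The other probe of Csf2rb was well above background in Cy5 on 7 of 8 infiltrating-cell arrays and on 0 of 8 tumour-blood arrays, and in Cy3 on 0 of 16 arrays. Its ratio sets no level and is not compared in size with that of the brighter probe. In infiltrating cells it was 0.11 ± 0.05 under loess, not called. In the deposited ratios it was 1.35 ± 0.23 and passed the test, with the opposite sign to the brighter probe. Mouse Csf2rb2 encodes a near-identical beta chain specific for IL-3, and cross-hybridisation between these genes was not tested. The Csf2rb2 probe rose by 1.16 ± 0.05 in infiltrating cells.

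Adgre1, which encodes F4/80, rose in infiltrating cells. Its log2 ratios were 0.35, 1.27 and 1.76 in infiltrating cells and −0.59, −0.34 and 0.03 in tumour blood, with no overlap. The mean was 1.19 ± 0.15 in infiltrating cells (limma adjusted p = 6.8e-05; above 0 on 8 of 8 arrays) and −0.29 ± 0.07 in tumour blood (limma adjusted p = 0.0019), under 2-fold in blood. Adgre1 was called in infiltrating cells under each centring, at 3.27 ± 0.17 under median centring, 2.92 under spike-in centring and 1.23 ± 0.13 in the deposited ratios. Its shift from loess to median centring was 2.08, so the calls under median and spike-in centring add little to that under loess. The second probe was well above background in Cy5 on 6 of 8 infiltrating-cell arrays and on 0 of 8 tumour-blood arrays, and in Cy3 on 0 of 16 arrays, so its ratio sets no level and is not compared with that of the brighter probe.

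Itgam, which encodes CD11b, had log2 ratios of −0.72, −0.26 and 0.10 in infiltrating cells and −0.17, 0.02 and 0.20 in tumour blood. The infiltrating-cell arrays split by slide. The 4 arrays of the first slide had a mean of −0.58 and the 4 of the second a mean of 0.05, while tumour blood had 0.02 and −0.01 on its slides. Over all arrays the mean was −0.27 ± 0.11 in infiltrating cells (limma adjusted p = 0.048, under 2-fold) and 0.01 ± 0.04 in tumour blood. Under median centring it was 1.01 ± 0.16 in infiltrating cells, just past 2-fold, and −0.15 ± 0.05 in tumour blood. Under spike-in centring it was 0.67 in infiltrating cells, under 2-fold and not called.

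Lyz2, the brightest member, fell in infiltrating cells under loess. Its log2 ratios were −2.72, −1.51 and −1.25 in infiltrating cells and −1.22, −0.59 and 0.15 in tumour blood, a narrow gap with no overlap. The mean was −1.68 ± 0.15 in infiltrating cells (limma adjusted p = 6.2e-06) and −0.61 ± 0.10 in tumour blood (limma adjusted p = 1.5e-04), under 2-fold in blood. Under median centring the direction in infiltrating cells turned, at 0.61 ± 0.15, which did not reach 2-fold and lay below the 1.20 of all genes. That mark is too low for so bright a gene. The shift between the centrings was 2.29 for Lyz2 and 2.15 in the brightest bin of genes. The second probe gave −1.79 ± 0.13 in infiltrating cells under loess and 0.02 ± 0.13 under median centring. Lyz1, a near-identical neighbouring gene, fell by 1.75 log2 ± 0.09 under loess, and cross-hybridisation was not tested. Neutrophils, whose markers were lower in infiltrating cells as given above, also make lysozyme, and their part in the fall of Lyz2 was not tested.

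**Figure D3:**
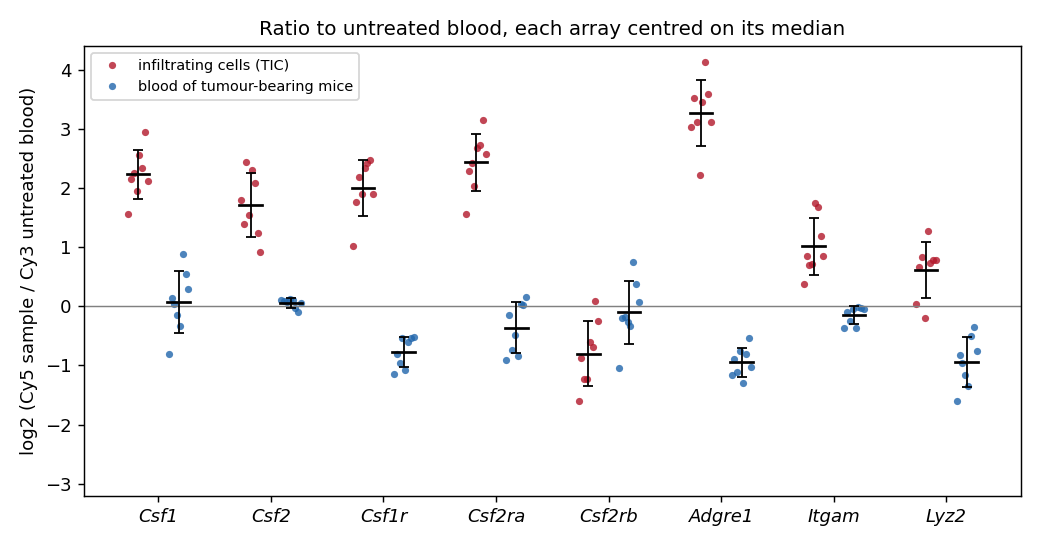
The same log2 ratios with each array centred on its median, in the layout of the loess plot. In infiltrating cells 6 of 8 members rose, Csf2rb averaged −0.80 and Lyz2 0.61, and Csf1r lies between 1.03 and 2.46.

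Tumour blood against untreated blood gave 0 of 8 called members by limma, under loess and under median centring alike. All genes were called at 0.748% under loess and at 7.27% under median centring. At an unadjusted p under 0.05, 6 of 8 members passed under loess, against 56% of all genes, and 5 under median centring, against 58.9%. These members also had an adjusted p under 0.05 and were not called because their changes were under 2-fold. In the deposited ratios Csf1 passed, at 1.01 ± 0.09 (limma adjusted p = 7.8e-05), and the other members did not.

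Infiltrating cells were then compared with tumour blood as the difference of their ratios, over 16 arrays. Both groups were set against the same reference, so this comparison shares it with the 2 above. Adgre1 was higher by 1.48 ± 0.17 log2 in infiltrating cells (limma adjusted p = 5.8e-07), Csf2rb lower at −2.55 ± 0.29 (limma adjusted p = 4.9e-07) and Lyz2 lower at −1.07 ± 0.20 (limma adjusted p = 1.3e-04). These 3 of 8 members were called, against 23.9% of all genes. The ratios of these members and of Csf2 did not overlap between the groups, as for 42.1% of all genes. Csf2 was well above background on 0 of 8 tumour-blood arrays in Cy5 and in Cy3. Its ratios there set no level, so its lack of overlap is not read like that of the other members. Lyz2 fell short of 2-fold with the refit of the background, at −0.96, without arrays 897 and 898, at −0.93, and without sample number 897 in both groups, at −0.96. Csf2rb was −2.98 with the refit and −3.02 without these 2 arrays.

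Members that did not pass this comparison under loess were Csf1 at −0.52 ± 0.11, Csf2 at 0.61 ± 0.09, Itgam at −0.28 ± 0.12, Csf1r at 0.10 ± 0.09 and Csf2ra at −0.00 ± 0.10. Under median centring 7 of 8 were higher in infiltrating cells and called, against 62.7% of all genes. The median of all genes was then 1.46. The members called were Adgre1 at 4.22, Csf2ra at 2.79, Csf1r at 2.78, Csf1 at 2.16, Csf2 at 1.66, Lyz2 at 1.55 and Itgam at 1.17. Csf2rb, at −0.70 ± 0.25, was the member that was not called there.

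In Cy5 signal alone, quantile normalised, 3 of 8 members were called between infiltrating cells and tumour blood, against 36.2% of all genes. Csf2 was well above background on 0 of 8 tumour-blood arrays, so its fitted 1.34 ± 0.10 log2 is no exact size, like the 2.17-fold value given above. Adgre1 was higher by 1.08 ± 0.21, and Csf2rb was lower at −2.94 ± 0.13. Adgre1 had 1007, 2269 and 3497 units in infiltrating cells and 731, 960 and 1357 units in tumour blood, and the groups overlapped. Without sample number 896 it was 0.91, under 2-fold. Lyz2 had 23394, 45202 and 64903 units in infiltrating cells and 53228, 61748 and 79711 units in tumour blood, a difference of −0.61 ± 0.18, not called. Its second probe, at −2.21 ± 0.08, was called. Csf1r was higher by 0.64 ± 0.10 (limma adjusted p = 5.4e-06), under 2-fold, and Itgam by 0.16 ± 0.13.

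**Figure D4:**
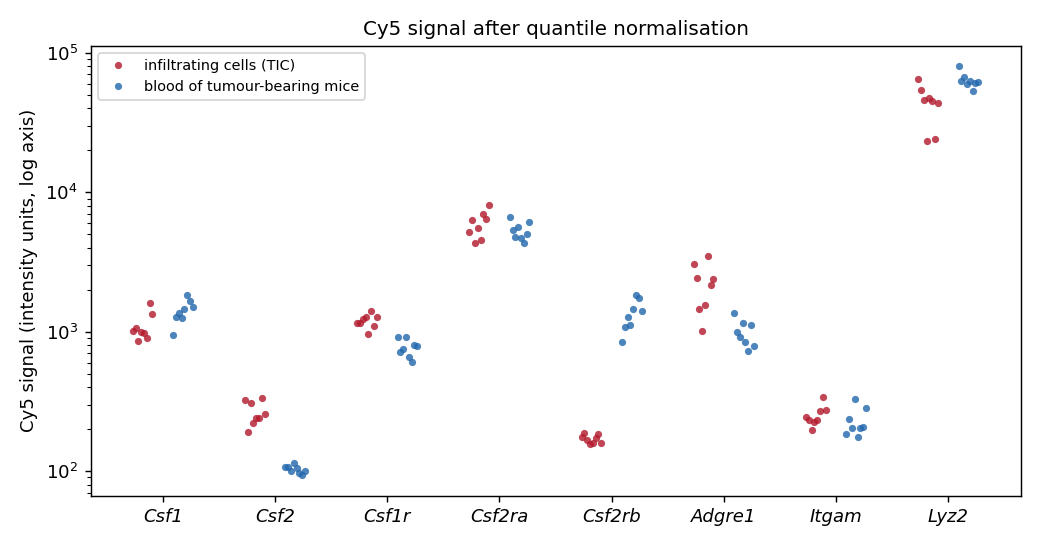
Cy5 signal of each member after quantile normalisation (log axis, intensity units), with 1 point per array, infiltrating cells left of tumour blood. Csf2rb lies at 157 to 188 units in infiltrating cells and 839 to 1843 in tumour blood, and Csf2 at 191 to 336 and 93.4 to 113 units.

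The signals of the reference channel were compared between the arrays that carried infiltrating cells and those that carried tumour blood. Limma called 824 of 12298 genes in Cy3, 6.70%, and 0 of the 8 members, all of which had an adjusted p under 0.05 with a change under 2-fold. Of all genes 69.3% had an adjusted p under 0.05. The Cy3 signal was higher on infiltrating-cell arrays for Csf1r (0.57 ± 0.05) and Csf2 (0.29 ± 0.04), and lower for Csf2rb (−0.64 ± 0.09) and Adgre1 (−0.38 ± 0.04), each with no overlap between the arrays. These were 4 of 8 members, against 45.7% of all genes. The source of these differences in the reference was not tested.

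Differences between the ratios of 2 genes on the same array leave out any constant of that array. They were chosen after the values had been seen, 16 in all, and tested by exact sign changes over the 8 arrays of a group, two-sided, whose smallest p is 0.0078. The ratio of Adgre1 exceeded that of Csf1r on 8 of 8 infiltrating-cell arrays, by 1.24 ± 0.54 under loess (SD, n = 8; exact p = 0.0078, adjusted 0.016) and by 1.27 ± 0.54 under median centring. In tumour blood the same difference was −0.14 ± 0.17. The ratio of Csf2rb lay below that of its partner chain Csf2ra on 8 of 8 infiltrating-cell arrays, by −2.29 ± 0.77 under loess, −3.23 ± 0.24 under median centring and −3.61 ± 0.19 in the deposited ratios. In tumour blood it was 0.26 ± 0.46. The ratio of Lyz2 lay below that of Csf1r on 8 of 8 infiltrating-cell arrays, by −1.63 ± 0.66 under loess and −1.39 ± 0.40 under median centring. In tumour blood this difference had the same sign, at −0.46 ± 0.37 under loess, above 0 on 1 of 8 arrays (exact p = 0.023, adjusted 0.031). Under median centring it was −0.16 ± 0.28 there (exact p = 0.15). The order of these 3 pairs was the same under both centrings. That of Csf2 against Csf1r turned: the difference in infiltrating cells was 0.64 ± 0.43 under loess, above 0 on 7 of 8 arrays (exact p = 0.016, adjusted 0.023), and −0.29 ± 0.64 under median centring, above 0 on 2 of 8 (exact p = 0.26).

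The genes most like Csf1r over the 16 arrays, by the root mean square difference of loess log2 ratios, were Id3, Wfs1, Med19, Mrpl19 and Smg9, at 0.13 each. Those most like Itgam were Fbxo8 at 0.09, Haus7, Myef2 and Agap3 at 0.11, and Cdca2 at 0.12. These genes share the arrays and have small ratios, with means between −0.35 and 0.03 in both groups.

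Genes of 5 pathway and identity lists were set beside the members. Under loess 9.33% of all genes rose and 10.1% fell in infiltrating cells, and 0.504% rose and 0.244% fell in tumour blood. Under median centring 6853 of 12298 genes (55.7%) rose and 407 fell in infiltrating cells, and under spike-in centring 5660 rose and 612 fell. In tumour blood 10 rose under each, and 884 and 926 fell. The lists were not matched to all genes in brightness. Of 13 tested genes of the CSF1 axis, Csf1 and Csf1r included, 1 rose in infiltrating cells against untreated blood under loess and 0 fell, with a median of −0.03 against 0.05 over all genes. Maf, a transcription factor of macrophages and other cells, rose by 2.63 ± 0.19. Il34, the second ligand of CSF1R, was at 0.96 ± 0.12, just under 2-fold, and was well above background in Cy5 on 8 of 8 infiltrating-cell arrays and 0 of 8 tumour-blood arrays. With the refit of the background, Il34 also rose and the phosphatase Ptpn6 and the adaptor Dok1 fell, which made 2 higher and 2 lower. Without arrays 897 and 898 there were 2 higher and 1 lower. Under median centring 9 rose and 0 fell in infiltrating cells, with a median of 1.77 against 1.20 over all genes, and under spike-in centring 8 rose and 0 fell, with a median of 1.43 against 0.86. In tumour blood 0 of 13 were called by limma under loess, with 8 at an unadjusted p under 0.05, and 0 rose and 2 fell under each of these centrings.

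Of 16 tested genes of the GM-CSF, IL-3 and IL-5 axis, with its 3 members included, 4 rose and 3 fell in infiltrating cells, with a median of 0.28. The risers were Csf2rb2 and 3 genes of the family of cytokine signal inhibitors that STAT5 is known to induce: Cish (2.04 ± 0.16), Socs2 (1.85 ± 0.13) and Socs1 (1.39 ± 0.10). Bcl2l1, which encodes the survival protein BCL-XL and is also abundant in erythroid cells, fell, at −2.73 ± 0.08. Csf2rb and Il3ra, the alpha chain of the IL-3 receptor (−1.21 ± 0.17), were the other falls. Jak2, Stat5a and Stat5b, at 0.09, 0.38 and 0.34, did not pass. Under median centring 10 rose and 0 fell, with a median of 1.90, and under spike-in centring 10 rose and 2 fell, with a median of 1.56. In tumour blood 1 of 16 rose under loess, Socs3 (1.37 ± 0.06), which IL-6 and G-CSF are known to induce. It was 0.70 under median and 0.69 under spike-in centring and was not called under either.

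Csf3r, the receptor of G-CSF on neutrophils, was 1 of 3 tested genes of the granulocyte axis. Under loess it fell, at −1.07 ± 0.15, in infiltrating cells and rose by 1.09 ± 0.08 in tumour blood, where it was 0.44 under median and 0.42 under spike-in centring and was not called under either. Under loess 4 of 8 neutrophil markers fell in infiltrating cells and 4 of 8 rose in tumour blood. Under median centring 0 of 8 fell in infiltrating cells and 1 of 8 rose in tumour blood, and under spike-in centring these were 2 and 1.

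Of 14 tested transcription factors of monocytes and macrophages, 7 rose and 2 fell in infiltrating cells, with a median of 1.02. Beside Maf these were Egr2 (2.90 ± 0.17), Egr1 (1.80 ± 0.16) and Nr4a1 (1.33 ± 0.12), which are immediate early genes, and Cebpb (1.98 ± 0.09), Klf4 (1.74 ± 0.07) and Bhlhe40 (1.70 ± 0.12). Many of these are expressed by other cells of a tumour too. Klf2 (−2.31 ± 0.06) and Irf5 (−1.25 ± 0.10) fell under loess. Klf2 was −0.09 under median and −0.44 under spike-in centring and was not called under either. Both centrings gave 10 higher and 0 lower, with medians of 3.16 and 2.81. In tumour blood Klf4 fell, at −1.01 ± 0.07, and was the 1 of 14 that limma called under loess. It fell under both other centrings too, at −1.68 and −1.70, where 2 of 14 fell and 0 rose.

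Of 21 tested surface and lysosomal genes, 4 rose and 2 fell in infiltrating cells, with a median of 0.21. Vcam1, an adhesion receptor (2.87 ± 0.27), Axl, a receptor for apoptotic cells (1.83 ± 0.23), Ms4a7 (1.75 ± 0.22) and Itgax, which encodes CD11c (1.37 ± 0.11), rose. The reference was well above background on 5 of 16 arrays for Vcam1, 6 for Axl and 13 for Ms4a7. Lyz1 and Itgal, the alpha chain of LFA-1 (−1.19 ± 0.15), fell. The monocyte chemokine receptors Ccr2 (−0.09 ± 0.13) and Cx3cr1 (−0.53 ± 0.09) did not pass. With the refit of the background Cd14, at 0.97 ± 0.06 under loess, also rose and Adgre4, at −0.90 ± 0.14, also fell. Under median centring 14 rose and 0 fell, with a median of 1.44, where 55.7% of all genes rose. Under spike-in centring 11 rose and 0 fell, where 5660 of all 12298 genes rose. In tumour blood 0 of 21 were called by limma under loess, with 8 at an unadjusted p under 0.05, and 0 rose and 1 fell under each of the other centrings.

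The list genes named here that rose in infiltrating cells against untreated blood also passed under median and spike-in centring. Of all genes called there, 94.4% and 90.2% were higher under these centrings. Passing under them therefore adds little for a gene that rose under loess. Of those that fell, Csf2rb and Bcl2l1 passed under spike-in centring and not under median centring. Csf3r, Irf5, Itgal and Lyz1 had positive values under both centrings and Il3ra under median centring, with none called.

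**Figure D5:**
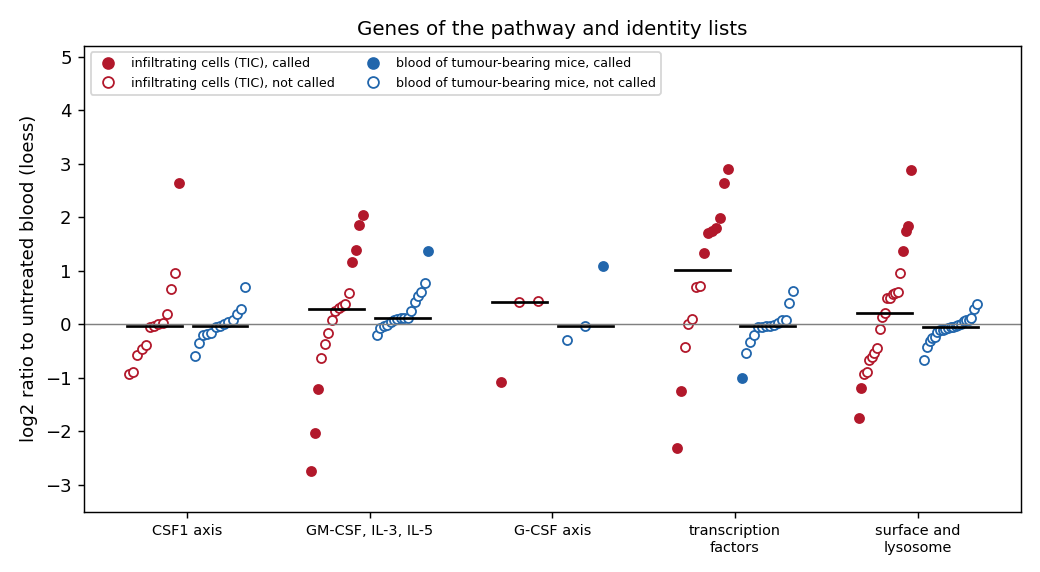
Loess log2 ratio to untreated blood of each tested gene of 5 lists, with infiltrating cells left of tumour blood in each list, filled points for called genes, open points for the others, and bars at the medians. Transcription factors have a median of 1.02 in infiltrating cells and −0.03 in tumour blood; the other lists have medians between −0.05 and 0.43.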

How the data were processed

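RNA of 8 infiltrating-cell samples and 8 blood samples of tumour-bearing mice was hybridised in Cy5 against untreated blood in Cy3. The deposited scanner files hold spot and local background intensities and, per the file headers, a log10 ratio of Cy5 over Cy3 that the authors' scanner software, Agilent Feature Extraction 10.5.1.1, had background-corrected and dye-normalised. Version 9.1.3.1 is listed in the submitters' processing notes. The deposited value table equals these ratios. Files of 0 further samples were used. The array design was built on mm8, so no probe coordinates are given.

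Median intensities were corrected with normexp (offset 50), normalised by loess within each array and averaged over the spots of a probe, leaving out control and outlier-flagged spots (115 to 221 flagged per array); 0 spots were saturated. Tested probes were those detected above background on 4 or more arrays of a group in Cy5, or 8 or more in Cy3. Log2 ratios were fitted with limma 3.58.1 in R 4.3.3, and a call needed an adjusted p under 0.05 and 2-fold. Fits were tested on simulated data. Alternatives were median and spike-in centring, the deposited ratios, other background corrections and filters, the mean of probes, slides, a block and left-out samples. The refit of the background, the analysis without arrays 897 and 898, the reference channel and the within-array differences were added after the data were seen.

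The genes, lists and tests were chosen with earlier results of these data known. Some genes of the lists are not reported here and were left out of the list counts. From each list, called genes were named; Il34, Ptpn6, Dok1, Spi1, Jak2, Stat5a, Stat5b, Ccr2, Cx3cr1, Cd14 and Adgre4 were named after their values were seen. Samples of the 2 groups share numbers, but deviations from the group means correlated at −0.17 to 0.20, over 0.1 in 4 of 8 pairs, so the numbers were not used to pair samples. The number of arrays limits the precision.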

Additional observations from a re-analysis of the deposited data

Results flagged for a closer look

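The difference between infiltrating cells and tumour blood passed limma's test of the difference itself, with at least 2-fold, for 3 genes. Csf2rb, the common beta chain, differed by −2.55 log2 (−2.98 with the refit of the background). Adgre1, which encodes F4/80, differed by 1.48 (1.47 with the refit), and Lyz2, which encodes lysozyme M, by −1.07 (−0.96 with the refit, under 2-fold). Among all genes 23.9% passed this comparison. In 32 sets of 8 values, 1 for each member, group and measure tested, no single sample lay far from the others by Dixon's criterion at the 95% level. That criterion looks at 1 sample at a time and does not find 2 arrays that deviate together, such as Csf2rb on arrays 897 and 898, at −0.48 and −0.79, with the other 6 arrays from −2.91 to −2.28.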

How the results depend on the processing

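In infiltrating cells against untreated blood, 3 members were called under loess, 6 under median centring, 6 under spike-in centring, 6 under median centring with the refit of the background, and 1 with the mean of all probes of a gene, which averages in probes of Csf2rb and Adgre1 whose Cy3 signal was well above background on 0 of 16 arrays. In tumour blood against untreated blood, 0 were called by limma under loess (6 at an adjusted p under 0.05, each under 2-fold) and 1 in the deposited ratios. Between infiltrating cells and tumour blood, 3 were called under loess and 7 under median centring, spike-in centring, and median centring with the refit. In Cy5 alone, 3 were called after quantile normalisation and 7 each with arrays centred on the median or on spike-in spots. Leaving out each sample number in turn gave 3 to 3 members in infiltrating cells against untreated blood, 0 to 0 in tumour blood, 2 to 3 between the groups (Lyz2 fell short without number 897, at −0.96) and 2 to 3 in Cy5 (Adgre1 fell short without number 896, at 0.91). Values turned against loess as follows, with median centring first, spike-in centring next and median centring with the refit last. Between infiltrating cells and tumour blood Csf1 was 2.16, 1.83 and 2.19, Csf2ra 2.79, 2.46 and 2.74, and Lyz2 1.55, 1.22 and 1.48. Against untreated blood Csf1r was 2.002, 1.66 and 2.15 in infiltrating cells, and Lyz2 0.61, 0.27 and 0.71. Itgam was 1.17 under median centring and 1.47 with the refit between the groups, and 1.01 and 1.33 against untreated blood. Under spike-in centring Itgam was 0.84 and 0.67 in these comparisons, not called, and the spike-in counts hold Csf2rb in its place, at −1.02 and −1.14. In Cy5, Csf1 was 2.56 with median and 2.39 with spike-in centring. These centrings differ from loess by construction, since they remove 1 constant per array and leave the trend with intensity; which scale holds the true level was not tested. Over all single-member values and alternatives, 625 kept their call or lack of one, 15 lost the call, 27 gained it and 21 turned. A turn was counted only where the value was called in the main setting or in the alternative. Values called in neither could change sign and still count among the 625. Csf2ra in tumour blood did so, at 0.26 under loess and −0.36 under median centring. Across all genes, infiltrating cells against untreated blood gave 2392 calls under loess, 7260 under median and 6272 under spike-in centring, 5759 in the deposited ratios and 4368 with floor subtraction. Tumour blood gave 92, and 894, 936, 956 and 403 under these, 53 with no background correction, 61 on the first slide and 152 on the second. The difference between the groups gave 2935, and 7711, 7075, 7006 and 5309, and Cy5 gave 4454, 8161 and 7929 under quantile, median and spike-in scaling. The share of calls that were higher was 67.4% under loess and 1.12% under median centring in tumour blood, 50.6% and 95.7% between the groups, and 55.7% and 93.1% in Cy5. With sample number as a replicate block, 3 members were called between the groups and 3 in Cy5, as without it; 2 of 8 infiltrating-cell samples correlated best with their own number.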
